A study of Mus musculus with 7 samples.

Results

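The integrated stress response and the serine and folate enzymes it controls were followed through 10 genes of mouse hematopoietic stem cells (HSCs) with and without ferritin heavy chain. The genes were taken by symbol, through the Ensembl identifiers of GENCODE mouse release M21, from a deposited table of 55855 identifiers. They are Atf4, Atf5, Ddit3, Trib3, Chac1, Asns, Phgdh, Psat1, Shmt2 and Mthfd2, which together have 11 rows, since M21 gives the symbol Ddit3 to both of 2 identifiers. The libraries are polyA RNA of bone marrow HSCs from mice aged 2 months, with 3 labelled Fth1fl/fl (control, floxed but undeleted Fth1) and 4 labelled Fth1△/△ (Fth1-deleted). The series text describes a conditional deletion in the hematopoietic system. The Cre driver, the deleted exons and the sort markers are not given in the sources used here. Nothing in the labels ties a library to a single mouse, so p values measure the spread between libraries, which may be technical.

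In the integrated stress response, kinases that sense stress phosphorylate the translation factor eIF2alpha. This lowers protein synthesis in general but favours translation of the mRNA of ATF4, a transcription factor. ATF4 activates genes for amino acid import and synthesis, among them those that make serine from glucose and pass its carbon to folate inside mitochondria. One of the kinases, HRI (encoded by Eif2ak1), is known as a sensor of heme in red cell precursors. Because ATF4 is controlled largely at translation, its RNA level does not report its protein level.

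ATF4 binds DNA as a partner of C/EBP-family proteins at composite elements, which link the factor to its targets. Short stretches whose letters match such an element are shown, and binding of ATF4 to them was not measured. The letters TGATGNAA were searched on both strands of the RefSeq promoter windows (GRCm38.p6), each running from 250 bases before to 50 bases after an annotated start. All 10 genes had a window, 12 windows in all, and the letters were found in windows of 3 genes, Asns, Trib3 and Chac1. Of all 32851 windows of this length, 3.97% hold them. Each stretch is written 5′ to 3′ along the gene's strand with the match in capitals. It lies at chr6:7693199-7693258 (minus strand) for Asns, at chr2:152344013-152344072 (minus strand) for Trib3 and at chr2:119351023-119351082 (plus strand) for Chac1.
Asns: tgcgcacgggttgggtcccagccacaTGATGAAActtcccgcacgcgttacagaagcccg
Trib3: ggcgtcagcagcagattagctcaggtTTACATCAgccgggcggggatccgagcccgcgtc
Chac1: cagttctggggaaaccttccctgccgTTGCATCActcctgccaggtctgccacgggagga
In Trib3 and Chac1 the match is on the opposite strand. The Trib3 match lies 14 to 21 bases after the annotated start of its RefSeq window, and those of Asns and Chac1 lie before the start. The absence of these letters in the other windows says nothing about elements placed elsewhere.

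Counted reads, read back from the FPKM values (fragments scaled by transcript length and by the counted reads of the library), ranged from 12058392 to 15453168 per library. Fth1 itself was at 552, 659 and 638 FPKM in the control libraries and at 202, 333, 358 and 114 in the Fth1-deleted libraries, or 40.8% of the mean control level, with no overlap (log2 difference -1.42, SE 0.33, limma adjusted p = 0.193). Of the 10 HSC markers, Kit was at 209 to 428 FPKM over the 7 libraries. Procr was at 30.1 to 180 and Mecom at 17.7 to 65.3. All 10 HSC markers summed to 897 to 1469 FPKM in control and to 606 to 822 in Fth1-deleted libraries. The T cell gene Cd3e was at 0 in each library. The 4 T cell markers, Cd3e among them, summed to 4.86 to 8.95 FPKM in control and 0 to 19.5 in Fth1-deleted libraries. Ribosomal RNA genes took 0.28% to 1.16% of the summed FPKM in control and 1.42% to 1.52% in Fth1-deleted libraries. The Y-linked gene Eif2s3y, named after its values were seen, was at 35.01 FPKM in control 2 and at 19.2, 21.9 and 39.3 in Fth1-deleted 1, 2 and 3, and at 0 in the other 3 libraries. Each group thus held libraries with and without this RNA, in unequal shares, so sex is partly confounded with deletion. A term for Y-linked reads is among the alternatives below.

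Apart from Chac1, each gene was measured well above the counting limit, but none of the 10 passed the threshold for a difference between control and Fth1-deleted HSCs. The 9 tested genes (mean FPKM of at least 1) were analysed as log2(FPKM + 1) with limma across all 13948 tested genes, two-sided, at a Benjamini-Hochberg adjusted p of 0.05. Here 0 of 9 were called higher and 0 of 9 lower, where 0.0287% of all tested genes were called in each direction. At an unadjusted p under 0.05 there were 3 of 9, namely Mthfd2, Trib3 and Asns, against 1371 of the 13948 tested genes. The median log2 difference (Fth1-deleted minus control) was 0.23 for the 9 genes and -0.017 for all tested genes, with 7 of 9 positive. For 0 of 9 did the groups fail to overlap. Over all tested genes 4.10% had every Fth1-deleted library above every control library, and 5.55% had every one below.

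**Figure D1:**
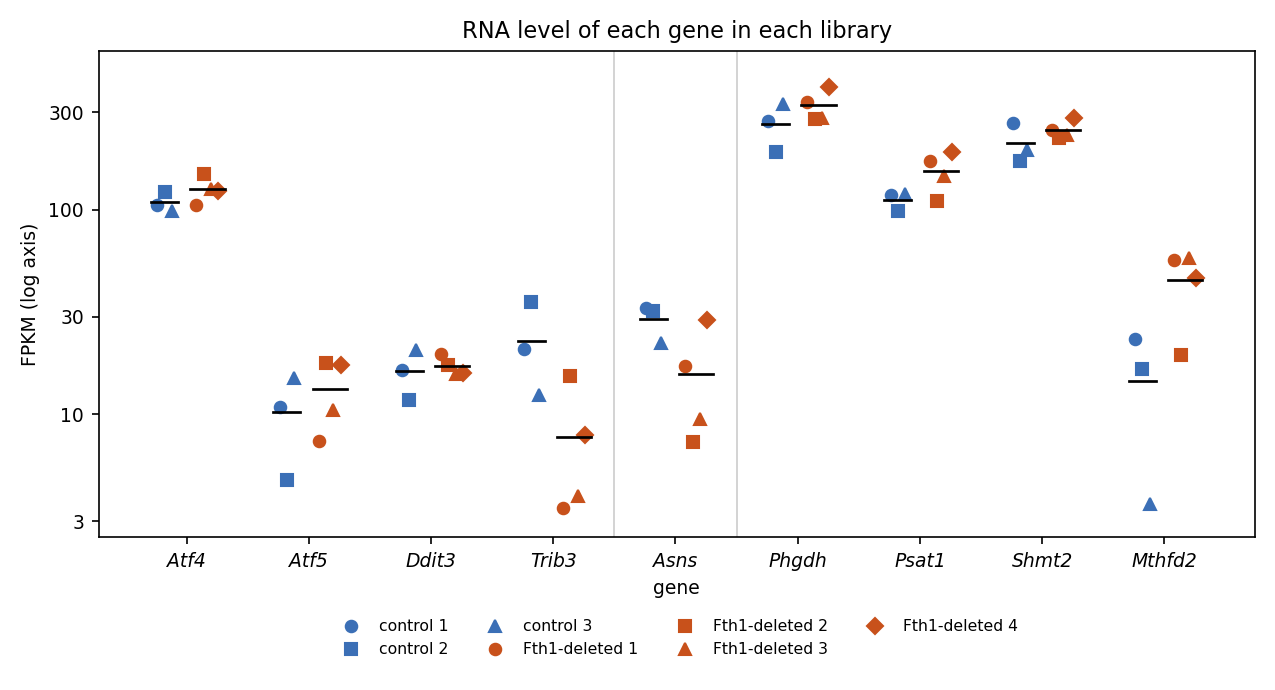
FPKM (log axis) of the 9 detected genes in each library, with control in blue, Fth1-deleted in orange, marker shape giving the replicate number and black bars the group means. Phgdh, Shmt2, Psat1 and Atf4 sit near or above 100 FPKM in each library, and every gene has at least 1 Fth1-deleted library within the control range or a control library within the Fth1-deleted range.

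The level of these RNAs per length separated into an upper and a lower group of genes. Averaged over the 7 libraries, Phgdh was first at 298 FPKM, then Shmt2 at 231, Psat1 at 137 and Atf4 at 119. Phgdh was above Shmt2 and Shmt2 above Psat1 in 7 of 7 libraries, whereas Psat1 was above Atf4 in 5 of 7. After a gap that held in 7 of 7 libraries came Mthfd2 at 32.0, Asns at 21.5, Ddit3 at 16.8, Trib3 at 14.2 and Atf5 at 12.0. The order among these 5 changed from library to library. Mthfd2 was above Asns in 4 of 7, Asns above Ddit3 in 4 of 7, Ddit3 above Trib3 in 5 of 7 and Trib3 above Atf5 in 2 of 7.

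Atf4 (ENSMUSG00000042406, chromosome 15, 80255184 to 80257541, plus strand), the central transcription factor, had the narrowest range of the 9 tested genes, with the highest library 1.51-fold above the lowest. It was at 106, 123 and 98.6 FPKM in control and at 105, 149, 127 and 123 in Fth1-deleted libraries. The groups overlapped, with Fth1-deleted 1 inside the control range. The means were 109 ± 12.3 (SD, n = 3) and 126 ± 18.1 (SD, n = 4), the log2 difference was 0.20 (SE 0.19, 95% interval -0.21 to 0.62) and the limma adjusted p was 0.747. The difference was 0.13 without control 3 and 0.12 without Fth1-deleted 2.

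Atf5 (ENSMUSG00000038539, chromosome 7, 44812256 to 44816658, minus strand), a related factor linked to mitochondrial stress, was an order lower. Its values were 10.8, 4.76 and 15.1 FPKM in control, against 7.40, 17.8, 10.5 and 17.5 in Fth1-deleted libraries. These correspond to 99 to 357 reads. Both groups varied, by 3.16-fold between the lowest and highest control and by 2.41-fold among Fth1-deleted libraries. The log2 difference of 0.39 (SE 0.48) had an interval from -0.66 to 1.45 (limma adjusted p = 0.808). The annotated 5′ part of Atf5 overlaps Nup62 on the opposite strand, at up to 118 FPKM. Whether the counting used strand is not given in the sources used here, so reads of the shared bases cannot be told apart.

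Ddit3 (ENSMUSG00000025408, chromosome 10, 127290774 to 127296288, plus strand) encodes CHOP, which ATF4 induces and which promotes cell death under lasting stress. It was at 16.5, 11.7 and 20.5 FPKM in control and at 19.7, 17.5, 15.7 and 15.8 in Fth1-deleted libraries. All 4 Fth1-deleted values lay inside the control range. The log2 difference was 0.10 (SE 0.34, interval -0.63 to 0.84, limma adjusted p = 0.937). The other row with this symbol (ENSMUSG00000116429, 105 bases within the same locus, 127290829 to 127293753) was at 0 in each library. It shares its bases with the first, and the handling of shared reads is not stated. The 3′ end of Ddit3 also overlaps Mars on the opposite strand, at up to 74.4 FPKM.

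Trib3 (ENSMUSG00000032715, chromosome 2, 152337422 to 152344032, minus strand), a pseudokinase induced by ATF4 and CHOP that feeds back on ATF4, had the lowest log2 difference of the 9 genes. It was at 20.9, 35.4 and 12.4 FPKM in control and at 3.49, 15.4, 3.99 and 7.87 in Fth1-deleted libraries. Fth1-deleted 1, 3 and 4 were below each control library, and Fth1-deleted 2 was above control 3. The means of 22.9 ± 11.6 (SD, n = 3) and 7.70 ± 5.52 (SD, n = 4) differ 2.98-fold. The log2 difference was -1.54 (SE 0.54, interval -2.72 to -0.37), with a limma adjusted p of 0.3996 and a two-sided exact permutation p of 0.0857. The smallest p that this test allows with 3 and 4 libraries is 0.0286.

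Chac1 (ENSMUSG00000027313, chromosome 2, 119351229 to 119354381, plus strand), an enzyme that degrades glutathione and a sensitive ATF4 target, was at 0 reads in each of the 7 libraries. With 3 reads as the limit that a count of 0 allows, its level was under 0.119 to 0.152 FPKM per library. Such limits cover counting error only, because PCR copies of 1 molecule are counted as separate reads. No difference of Chac1 was detectable at this depth, and it was not tested.

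Asns (ENSMUSG00000029752, chromosome 6, 7675169 to 7693254, minus strand), which makes asparagine and is a standard readout of ATF4, was at 33.1, 31.9 and 22.3 FPKM in control. In Fth1-deleted libraries it was at 17.1, 7.31, 9.43 and 29.0. Fth1-deleted 1, 2 and 3 were below each control library, while Fth1-deleted 4 was among the controls. The means were 29.1 ± 5.90 (SD, n = 3) and 15.7 ± 9.82 (SD, n = 4). The log2 difference of -1.01 (SE 0.44, interval -1.97 to -0.045) did not pass (limma adjusted p = 0.489, two-sided exact permutation p = 0.114). Asns and Trib3, the 2 genes with negative differences, are also the detected genes whose promoter stretch is printed above, which was not tested.

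Phgdh (ENSMUSG00000053398, chromosome 3, 98313170 to 98339990, minus strand), which takes the first step of serine synthesis from the glycolytic intermediate 3-phosphoglycerate, was at 271, 192 and 328 FPKM in control and at 338, 278, 280 and 400 in Fth1-deleted libraries. Control 3 exceeded Fth1-deleted 2 and 3 (log2 difference 0.31, SE 0.21, limma adjusted p = 0.663). The difference was 0.10 without control 2, 0.49 without control 3 and 0.21 without Fth1-deleted 4. Its level is uncertain, since 19 annotated copies match Phgdh over at least 200 bases at 90% identity or more. Gm7901 matches at 98.75% over 84.4% of the length. The copies summed to 3.27 to 15.7 FPKM, or 0.996% to 8.20% of Phgdh, with the highest share in control 2, where Phgdh was lowest.

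Psat1 (ENSMUSG00000024640, chromosome 19, 15904678 to 15947337, minus strand), the aminotransferase of the next step, was at 118, 98.8 and 119 FPKM in control and at 173, 111, 146 and 192 in Fth1-deleted libraries. Fth1-deleted 1, 3 and 4 were above each control and Fth1-deleted 2 was within them. The log2 difference was 0.45 (SE 0.21, interval -0.018 to 0.92, limma adjusted p = 0.528, two-sided exact permutation p = 0.114). Psph, the phosphatase that completes serine synthesis, was at 20.4, 37.2 and 11.7 FPKM in control and at 40.9, 16.3, 39.3 and 27.9 in Fth1-deleted libraries, with overlapping groups (limma adjusted p = 0.735).

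Shmt2 (ENSMUSG00000025403, chromosome 10, 127517123 to 127522444, minus strand) moves a carbon from serine to folate in mitochondria. It was at 266, 173 and 197 FPKM in control and at 244, 226, 231 and 280 in Fth1-deleted libraries. Control 1 was above 3 of the 4 Fth1-deleted libraries (log2 difference 0.23, SE 0.19, interval -0.18 to 0.63, limma adjusted p = 0.717). It was 0.092 without control 2 and 0.40 without control 1.

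Mthfd2 (ENSMUSG00000005667, chromosome 6, 83305691 to 83325908, minus strand), the mitochondrial folate dehydrogenase and cyclohydrolase known for its high level in dividing and tumour cells, had the highest log2 difference of the 9. It was at 23.2, 16.6 and 3.65 FPKM in control, worth 278, 216 and 38 reads. In Fth1-deleted libraries it was at 56.5, 19.6, 58.4 and 46.2 FPKM, worth 754, 230, 645 and 590 reads. Fth1-deleted 1, 3 and 4 were above each control library, and Fth1-deleted 2 lay between controls 1 and 2. The means of 14.5 ± 9.95 (SD, n = 3) and 45.2 ± 17.9 (SD, n = 4) differ 3.12-fold. The log2 difference was 1.76 (SE 0.55, interval 0.57 to 2.96), with a limma adjusted p of 0.345 and a two-sided exact permutation p of 0.0857. Without control 3 the log2 difference was 1.05 (limma adjusted p = 0.491). Control libraries spread 6.35-fold for Mthfd2, and the SD of its log2(FPKM + 1) among them was at percentile 84.0 of all tested genes. For Psat1 and Atf4 that percentile was 11.3 and 12.4. The annotated gene Gm43890 lies within Mthfd2 on the same strand, at up to 2.52 FPKM, and the handling of shared reads is not stated.

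**Figure D2:**
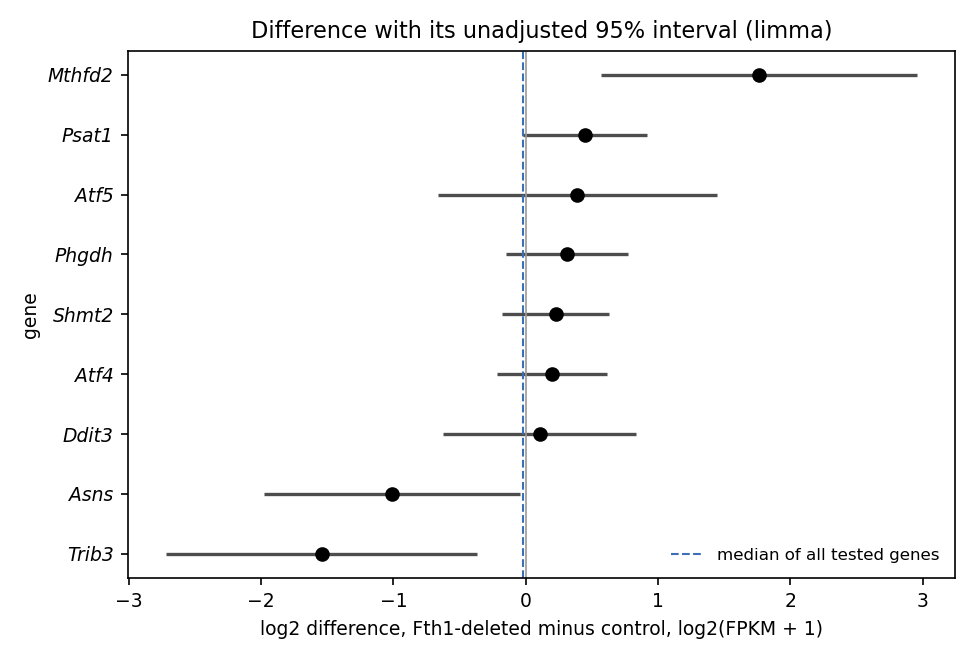
Log2 difference of each tested gene (Fth1-deleted minus control, log2(FPKM + 1) scale), with dots for the limma estimate and bars for the unadjusted 95% interval. The intervals of Mthfd2 (0.57 to 2.96), Trib3 (-2.72 to -0.37) and Asns (-1.97 to -0.045) leave out 0, and none of the 9 passes after adjustment over all genes.

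Markers of dividing cells and of HSCs were measured in the same libraries. All 15 genes of a cell division list had positive differences with a median of 0.54 and 0 called, led by Rrm2, which helps make deoxynucleotides for DNA synthesis, at 61.1 ± 9.92 and 131 ± 15.1 FPKM (limma adjusted p = 0.0918). The mitotic kinase genes Plk1 (24.6 ± 21.4 and 56.1 ± 13.8 FPKM) and Aurkb (60.4 ± 17.2 and 99.4 ± 27.8) came next by p. In 3 of the 15 genes of the list every Fth1-deleted library was above every control library, beside 4.10% of all tested genes. Positive differences made up 48.7% of all tested genes. The summed level of that list was 1310 to 2227 FPKM in control and 2197 to 2342 in Fth1-deleted libraries. Control 1, at 2227, was within the Fth1-deleted range. Summed HSC markers were at 897 to 1469 FPKM in control and at 606 to 822 in Fth1-deleted libraries. Of those 10 genes, 8 had negative differences (median -0.68), 2 had every Fth1-deleted library below every control library, and 1 was called lower by limma. Over all tested genes, 5.55% had every Fth1-deleted library below every control library and 0.0287% were called lower. Without control 3, 0 of all tested genes were called. In bulk RNA, more cells of a kind and more RNA per cell cannot be told apart, and the part of either list in the values of Mthfd2, Psat1, Trib3 or Asns was not tested.

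Markers of other blood cells were compared in the same way. The 5 macrophage markers summed to 19.0 to 33.9 FPKM in control and 42.3 to 130 in Fth1-deleted libraries, with Adgre1 at 0 in each control and in Fth1-deleted 4. The 6 neutrophil and myeloid markers summed to 153 to 353 and 165 to 564, with Elane at 0 in each control and in Fth1-deleted 1 and 2. Prtn3, at 132 to 315 FPKM, made up much of that sum in each library. Mpo, the granule enzyme myeloperoxidase, was at 2.33, 3.63 and 0.255 FPKM in control, against 23.4, 15.4, 84.2 and 134.8 in Fth1-deleted libraries (log2 difference 4.11, SE 0.72, limma adjusted p = 0.0803). The mean log2(FPKM + 1) of the 6 was 1.54 to 2.88 in control and 2.95 to 5.86 in Fth1-deleted libraries, without overlap. B cell markers, 6 in number, summed to 12.1 to 26.2 and 24.2 to 64.0. The 4 mast cell and basophil markers summed to 0 to 12.9 and 16.0 to 44.4, with Mcpt8 at 0 in each library, the 4 T cell markers to 4.86 to 8.95 and 0 to 19.5, the 6 erythroid markers to 229 to 728 and 183 to 634, and the 4 megakaryocyte markers to 531 to 783 and 782 to 932. Their part in the levels of the stress and serine genes was not tested.

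Upstream of ATF4, a list of 17 genes held those of the eIF2alpha kinases, phosphatase and eIF2 complexes, and also Dele1 and Oma1. Of these 17, 0 were called in either direction, with a median log2 difference of 0.13. Eif2ak1, the heme-sensing kinase, was at 23.7, 25.5 and 20.5 FPKM in control and at 28.5, 27.4, 24.4 and 18.9 in Fth1-deleted libraries (limma adjusted p = 0.936), so the Fth1-deleted range enclosed the control range. The smallest p of the list belonged to Eif2s1, which encodes eIF2alpha itself, at 45.6 ± 7.22 and 71.9 ± 9.78 FPKM (limma adjusted p = 0.392). Eif2ak2, the kinase activated by double-stranded RNA, was at 49.3 ± 5.22 and 32.6 ± 5.19 (0.466), and Eif2b2, a subunit of the exchange factor eIF2B, at 92.2 ± 17.3 and 54.7 ± 22.9 (0.467). In these 3 the groups did not overlap, a count of 1 higher and 2 lower among 17, beside 4.10% higher and 5.55% lower over all tested genes.

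Among 30 other targets of ATF4 and CHOP, 26 were tested, and 0 were called, with 16 positive differences and a median of 0.26. Nupr1, a stress-induced chromatin protein, was at 76.2, 48.9 and 44.8 FPKM in control and at 18.3, 36.1, 24.4 and 13.0 in Fth1-deleted libraries. Each Fth1-deleted value of Nupr1 was below each control value (log2 difference -1.32, SE 0.35, limma adjusted p = 0.271). Slc1a5, a carrier of glutamine and other neutral amino acids, was at 187 ± 52.7 and 256 ± 29.1 FPKM, and the lipoprotein receptor gene Vldlr at 12.3 ± 6.37 and 3.48 ± 2.51 (limma adjusted p = 0.477 for both). Slc7a11, the cystine carrier, was too low to be tested, at 0 in 4 libraries and at 0.036, 0.879 and 1.43 FPKM in Fth1-deleted 1, 2 and 4. The list thus held genes of either sign, as did the 9.

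Of 31 other serine, glycine and folate genes, 28 were tested and 0 were called (median 0.049, 17 positive). Shmt1, the cytosolic counterpart of Shmt2, was at 54.7, 44.7 and 46.6 FPKM in control and at 69.9, 66.3, 64.4 and 82.1 in Fth1-deleted libraries, without overlap (log2 difference 0.53, SE 0.21, limma adjusted p = 0.445). Slc19a1, the reduced folate carrier, was at 67.0 ± 7.29 and 49.5 ± 10.8 FPKM (0.585), and Mthfs, which returns folinic acid to the folate pool, at 4.98 ± 1.99 and 2.00 ± 2.42 (0.614). The cytosolic enzyme gene Mthfd1 had a log2 difference of 0.038 (SE 0.27) and the mitochondrial Mthfd2l one of -0.19 (SE 0.48), and both changed sign under some alternatives.

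For the other arms of the unfolded protein response, which answer the same endoplasmic reticulum stress as the kinase PERK but signal through XBP1 and ATF6, 0 of 20 genes were called, with 16 positive and a median of 0.28. Sdf2l1, an endoplasmic reticulum chaperone component, was at 49.7, 11.0 and 19.7 FPKM in control and at 75.6, 101, 62.9 and 82.3 in Fth1-deleted libraries (log2 difference 1.79, SE 0.41, limma adjusted p = 0.193). Manf, a secreted stress protein of that compartment, was at 51.3 ± 24.3 and 88.6 ± 9.71 FPKM (0.424), and the sensor gene Ern1 at 59.97 ± 23.0 and 29.4 ± 9.55 (0.383). The groups did not overlap in 5 of the 20 genes, higher in each, beside the 4.10% of all tested genes given above and 0 of 9 for the stress and serine genes. Without control 1, Sdf2l1 (adjusted p = 0.0271) and Plk1 (adjusted p = 0.0496) were called by limma.

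**Figure D3:**
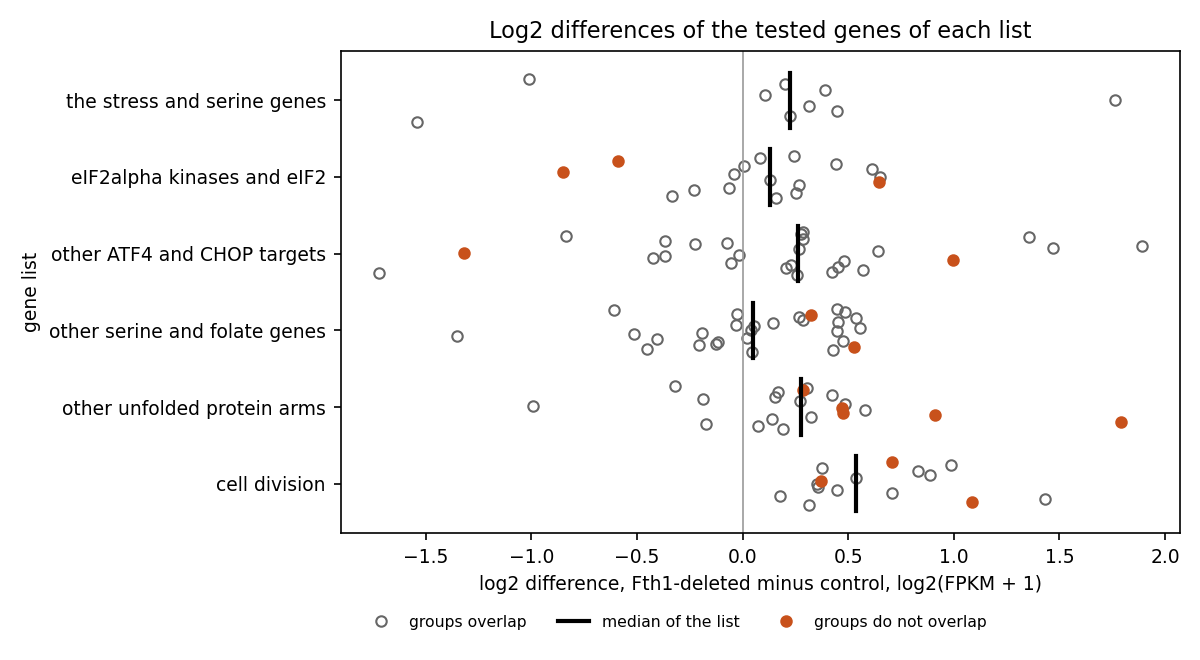
Log2 differences (Fth1-deleted minus control) of the tested genes of 6 lists, with filled dots for genes whose groups do not overlap and black bars for list medians. The 9 stress and serine genes run from -1.54 to 1.76 with no filled dot, and each list holds both signs except cell division, where all 15 are positive.

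Ratios between genes of the same library do not depend on scaling between libraries, apart from the pseudocount, and 5 were compared by two-sided exact permutation tests. The log2 ratio of Shmt2 to Shmt1 was 2.26, 1.93 and 2.06 in control, against 1.79, 1.75, 1.83 and 1.76 in Fth1-deleted libraries. Every Fth1-deleted ratio was below every control ratio, with means of 2.08 ± 0.17 and 1.78 ± 0.035 (SD, n = 3 and 4), and the difference was -0.30 (exact permutation p = 0.0286, the smallest the design allows, and 0.0714 adjusted over the 5 ratios). The ratio of mitochondrial to cytosolic enzyme RNA was thus 4.24 and 3.44 on the linear scale, a difference that did not pass after adjustment.

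The log2 ratio of Mthfd2 to Mthfd1 was -2.56, -2.84 and -5.27 in control, against -1.85, -2.21, -1.22 and -2.04 in Fth1-deleted libraries. Every Fth1-deleted ratio was above every control ratio, by 1.73 on average (exact permutation p = 0.0286, adjusted 0.0714). Control 3 lay far below the other two controls, and without it the difference was 0.87. Mthfd2 to its mitochondrial relative Mthfd2l gave a difference of 1.95 with overlapping groups (exact permutation p = 0.0857, adjusted 0.143). Ddit3 to Atf4 and Psat1 to Phgdh gave differences of -0.098 and 0.13 (exact permutation p = 0.743 and 0.429, adjusted 0.743 and 0.536).

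**Figure D4:**
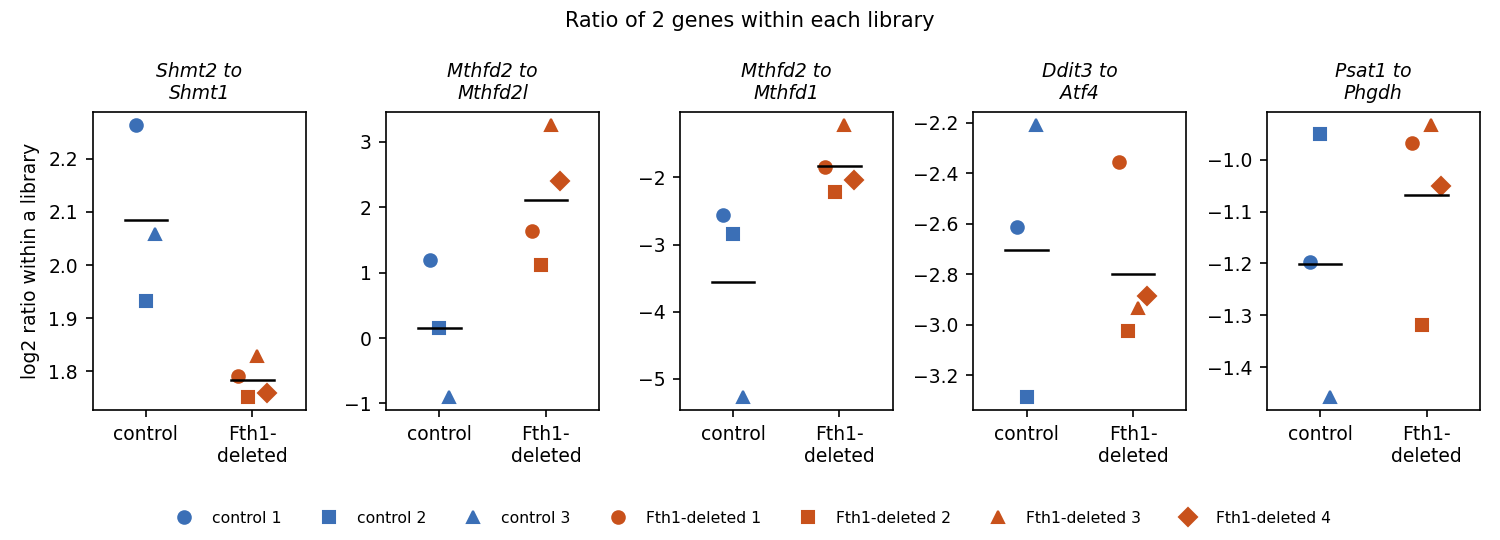
Log2 ratio of 2 genes within each library, one panel per pair and each with its own axis, with points for libraries (control in blue, Fth1-deleted in orange) and bars for group means. Groups separate for Shmt2 to Shmt1 (control mean 2.08, Fth1-deleted mean 1.78) and for Mthfd2 to Mthfd1 (-3.55 and -1.83), and overlap in the other 3 panels.

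Across libraries, pairs of these genes ranged from opposite to similar patterns. Over the 7 libraries, Phgdh and Psat1, successive steps of serine synthesis, had a Pearson correlation of 0.82 in log2(FPKM + 1), and of 0.76 in deviations from group means. Atf4 and Asns had -0.60, and -0.39 within groups. Trib3 and Psat1 had -0.82, and -0.63 within groups. The highest coefficient within groups, 0.89, was that of Atf4 and Trib3, which had 0.11 over all libraries. These coefficients describe 7 points that share library, depth and scaling, and 36 pairs of the 9 genes were computed.

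Outside the pathway, the 5 named genes whose pattern over the 7 libraries was closest to that of Atf4, among 9540 with a mean FPKM of at least 5, were Nprl2, Zfp40, Scap, Kat2a and Upf3b, with Pearson coefficients of 0.952 to 0.971. Nprl2, for example, was at 14.4, 34.5 and 11.1 FPKM in control and at 15.9, 52.6, 31.9 and 23.8 in Fth1-deleted libraries, highest in Fth1-deleted 2 as Atf4 was. Closest to Mthfd2 were Polr1a, Pabpn1, Rbl1, Zfp143 and Epop, at 0.958 to 0.970. Polr1a, the largest subunit of RNA polymerase I, was at 48.9, 41.5 and 34.4 FPKM in control and at 62.0, 46.3, 56.0 and 54.1 in Fth1-deleted libraries, with control 3 lowest for both genes. These genes were picked for their likeness from 9540 candidates over 7 libraries, so shared high or low libraries follow from that choice.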

How the data were processed

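Per the series' design text, paired-end reads were aligned to GRCm38 (HISAT2 2.0.4), reads were assigned to genes (HTSeq 0.9.1), and the authors derived the deposited FPKM values from these counts and gene length. Annotation release, strand setting, treatment of reads with several matches and filters are not given in the sources used here. Per the labels, the NEBNext Ultra kit was used. Of 55855 identifiers, 55480 matched GENCODE M21. FPKM times the mean transcript length gave whole reads within 0.05 reads for 98.9% to 99.4% of values worth under 50 reads, which gave the depths. The 13948 genes averaging 1 FPKM or more were fitted as log2(FPKM + 1) in limma 3.58.1 (R 4.3.3; limma-trend, no covariate), with Benjamini-Hochberg adjustment over all of them; the code was tested on simulated data. Log2 differences are on that scale and understate the change of low genes. Copies were found with BLAST 2.17.0. Members, lists, tests and alternatives were chosen with earlier results of these data known. Named genes are the members, Fth1, in each other pathway list the genes past the threshold or else the 3 with the smallest p, Shmt1, Mthfd1, Mthfd2l, Psph, Eif2ak1, Slc7a11 and the 5 closest in pattern to Atf4 and Mthfd2; other genes are markers or overlapping genes, or were named after their values were seen. Single results for some marker genes are not reported here.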

Additional observations from a re-analysis of the deposited data

How the results depend on the processing

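Results were recomputed under 20 alternatives: a pseudocount of 0.1 or 5, all genes kept or those averaging 5 FPKM, median-of-ratios size factors, quantile normalization, TPM, limma without a trend, library weights, the replicate block, each of the 7 libraries left out, a ribosomal RNA covariate, a term for Y-linked reads and limma-voom on recovered reads. In each, 0 members were called. Trib3, Asns, Psat1, Phgdh, Shmt2 and Mthfd2 kept their direction in 20 of 20, with log2 differences of 0.71 to 2.24 for Mthfd2 and -2.91 to -1.14 for Trib3. Not all 20 could differ, since changes of filter and of trend cannot move a log2 difference. The replicate block gave the same estimates as leaving out Fth1-deleted 4 (1.715 for Mthfd2 in both). Adjusted p (limma) ranged from 0.208 to 0.803 for Mthfd2 and from 0.265 to 0.684 for Trib3. The share of ribosomal RNA (0.28% to 1.16% in control, 1.42% to 1.52% in Fth1-deleted libraries) did not overlap between the groups. A fit with that share as covariate can hardly tell it apart from the deletion. Such a fit gave the 0.71 of Mthfd2 (SE 1.07, against 0.55 without it) and the -2.91 of Trib3. With the ribosomal RNA covariate the sign turned for Atf4 (-0.13), Psph (-0.80) and Eif2ak1 (-0.14). It also turned for Mthfd1 with quantile normalization (-0.033), TPM (-0.039) and the replicate block (-0.080), for Mthfd2l with library weights (0.00039) and for Eif2ak1 with the Y-linked term (-0.064). With 1 library left out, differences that turned ran from -0.10 (without control 2) to 0.28 for Ddit3, from -0.11 to 0.26 for Mthfd1, from -0.49 to 0.051 for Mthfd2l, from -0.0034 to 0.20 for Eif2ak1 and from -0.39 to 0.15 (without control 3) for the ratio of Ddit3 to Atf4. For Atf5 the lowest was -0.029 (without control 2) and the highest 0.71. Genes called in the other 5 pathway and cell division lists numbered 0, or 2 without control 1. Fth1 was called with the Y-linked term (-1.74, adjusted p = 0.0491). With 1 library left out the ratio difference was -0.38 to -0.21 for Shmt2 to Shmt1 and 0.87 to 2.22 for Mthfd2 to Mthfd1, and such designs cannot reach an exact p of 0.05. Over all genes, 8 were called, but 0 with the replicate block (987 at unadjusted p under 0.05), without control 3 (1335) or with no filter (1504), and 19 without control 1. Deviations of same-numbered libraries from their group means correlated at 0.0090, 0.061 and -0.037, so the numbers were not taken as pairs. The causes were not tested. With 3 and 4 libraries, a p above the threshold does not show that a gene did not differ.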
